A study of Mus musculus with 21 samples.

Results

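Nutrient sensing in a cell runs through a pair of opposed kinases, and autophagy is among the processes that they govern. When amino acids and growth factors are plentiful, mTOR complex 1 (mTORC1) promotes protein synthesis and restrains autophagy. When energy falls, AMP-activated protein kinase (AMPK) opposes mTORC1 and promotes autophagy, in which a double membrane encloses cell contents and delivers them to the lysosome. FoxO transcription factors and the lysosomal regulators TFEB and TFE3 carry the same nutrient state to the genome. The genes described here were taken from a list of 43 symbols of these pathways, and 42 of them were found among the 32052 loci of the deposited table. Map1lc3b was not analysed here. The list was made by pathway and not by a measured value, though with earlier results of these data known. A locus is a stretch of overlapping transcripts, and a gene was read at the locus that holds its exons in the authors' merged annotation.

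Taste buds of the circumvallate papilla came from wild-type mice of the inbred strain C57BL/6J that were 20 to 24 weeks old. Labels give 7 Hungry, 7 Satiated and 7 Ad lib libraries, and do not say how the mice were made hungry or satiated or how many animals stood behind a library. RNA came from papillae dissected out of the tongue, and cDNA was primed with oligo(dT). The deposited table names 3 conditions, but 0 of 32052 loci differed between them in any value, so each level below pools all 21 libraries. No level of Hungry, Satiated or Ad lib mice, no fold change between them and no test could therefore be had for these genes, and no value per library is shown. A level is the mean, as the authors deposited it, of fragments that fit an annotated transcript, after scaling each library by a size factor. The coefficient of variation (CV) is the square root of their variance over that mean. The variance was taken within sets of libraries, so differences between sets do not enter it.

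The mean library held 21881979 compatible and 23769781 total fragments. Taste bud markers were abundant, with Krt8, a keratin of taste bud cells, at 37058 fragments, the type II cell gene Gnat3 at 24576 and the type III cell gene Otop1 at 13734. The 3 type I cell genes were uneven, at 9.87 fragments for Slc1a3, under the detection threshold of 10, and up to 13472 for Entpd2. All 6 markers of stratified tongue keratinocytes were present too, at 193 to 41906 fragments and with CVs of 0.513 to 3.40. Leukocyte markers lay between 0 and 48.8 fragments, with Cd3e at 0, and erythrocyte markers at 0.115 and 0.135. Fibroblast markers lay between 0.180 and 364 fragments, the highest being Dcn. Whether the keratinocyte share of a library moved with the genes below was not tested. In bulk samples like these, fewer cells of a type and less RNA per cell cannot be told apart.

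Sequence around start sites of the genes is shown first, because TFEB and TFE3 bind the palindrome CACGTG and FoxO factors bind GTAAACA. RefSeq windows (GRCm38.p6) from 250 bases before to 50 bases after a start site were found for 34 of the 42 genes. CACGTG occurred in the windows of 6 of these 34 genes (17.6%), against 8.09% of 27025 genes in the whole RefSeq table and 11.4% of 5619 genes at detected protein-coding loci with 1 gene name. No test was made of this share. The longer core TCACGTGA, which contains CACGTG, occurred at Atg3 and at no other of the 34 genes, against 1.12% of all genes and 1.9% of the 5619. GTAAACA or its reverse complement occurred at Sesn1 and Stk11, which is 5.88% of the 34 genes against 4.05% of all genes and 3.11% of the 5619. Each run below spans the matches of a gene with 11 bases on either side, read 5′ to 3′ on the strand of the gene, with the matches in capitals.
Lamp1: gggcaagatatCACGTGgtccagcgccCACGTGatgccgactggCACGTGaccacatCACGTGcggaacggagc
Atg3: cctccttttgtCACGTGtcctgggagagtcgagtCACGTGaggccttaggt
Atg5: ggagcgcttgcCACGTGgtcttggtgac
Atg7: atattggtggtCACGTGtgcagtaagtg
Atg14: aaacaaaatccCACGTGactggccctga
Rheb: ccgcgcgcggtCACGTGggtgtgttgtt
Sesn1: gaaccttctacTGTTTACcagccttttgg
Stk11: ggcgcagggcgGTAAACAagatggcggcg
The Lamp1 run (chr8:13159089-13159162, plus strand) holds 4 copies of CACGTG between 61 and 15 bases before the start, and 6 of the 27025 genes (0.0222%) have at least 4 in a window. That count was looked up after the Lamp1 sequence had been seen. Both copies at Atg3 (chr16:45158724-45158774, plus strand) lie within 94 bases before its start. On the plus strand are also Atg5 (chr10:44268314-44268341) and Atg7 (chr6:114670953-114670980), and on the minus strand Atg14 (chr14:47568419-47568446) and Rheb (chr5:24842441-24842468). The Atg7 run lies inside the Atg7 locus, which begins at chr6:114643097. The Atg14 match begins at the last base before the start and runs across it. The FoxO-type matches of Sesn1 (chr10:41810585-41810613) and Stk11 (chr10:80115800-80115828), both on the plus strand, lie after the start, at bases 23 and 17. A match describes the letters of these windows and shows no binding.

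All 42 genes reached the threshold for detection, 10 compatible fragments on average, as did 42% of all loci and 63.9% of loci with a protein-coding gene. All 42 also passed at 1 fragment (50.7% of all loci), at 50 fragments (35.4%) and at 10 total fragments (50.3%). Levels ran from 98.1 fragments at Tsc1 to 20179 at Lamp1. At 24 genes the locus holds no other gene name, and at 18 genes it is shared, so the level there belongs to the whole locus. Of the shared loci, 10 hold another protein-coding gene and 8 hold only noncoding companions. Genes were compared only after division by the exon length of the locus in kb. On that scale the 24 genes with a locus of their own had a median of 217 fragments per kb. The median was 134 at all 8696 detected loci with 1 gene name and 154 at the 7514 protein-coding ones among them. Above the median of 134 lay 18 of the 24 genes. Long loci had lower values in general, with a median of 104 per kb at those of the 8696 loci with at least 4767 exon bases and 154 per kb at those with at most 1703, and the part of length or of oligo(dT) priming in the order of genes was not tested. Exact sharing of 50-base stretches with other genes was small at most of the 42. At 1 of the 42 genes, Atg9a, more than 3% of all 50-base stretches of its GENCODE M21 transcripts also occur in another gene. That gene is mainly Gm29253 at the same locus (29.7%). Copies with mismatches, and copies outside annotated transcripts, were not searched.

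**Figure D1:**
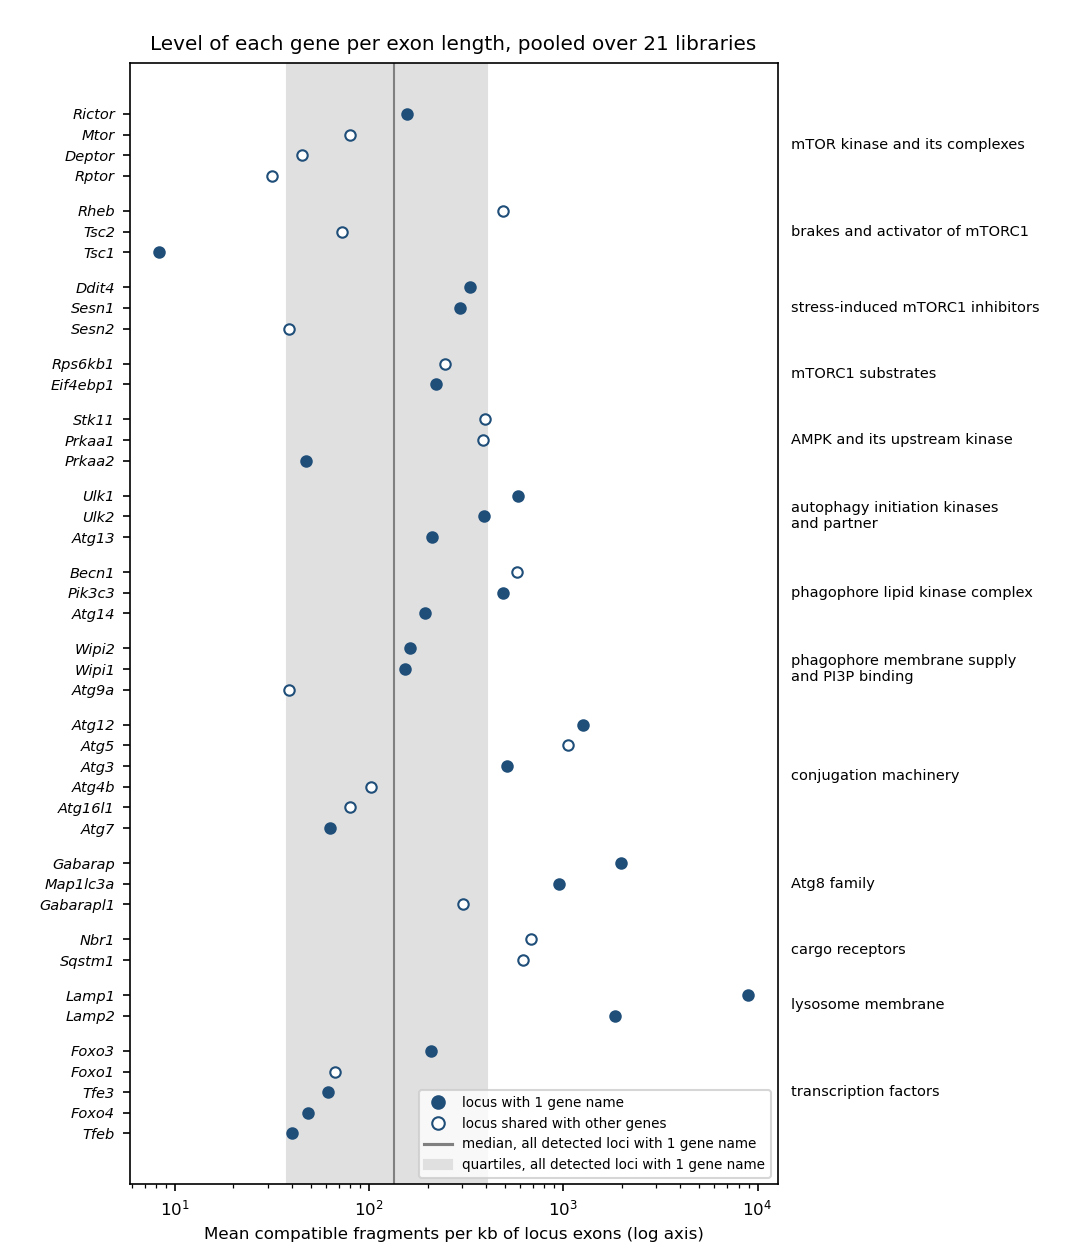
Mean compatible fragments per kb of locus exons (log axis) for each of the 42 genes, by role, pooled over 21 libraries; filled points are loci with 1 gene name, open points are shared loci, and the line and band give the median and quartiles of all 8696 detected loci with 1 gene name. Lamp1 at 8949 and Tsc1 at 8.29 mark the ends, and the lysosomal and Atg8 genes sit to the right of the mTOR complex genes.

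Genes of the mTOR complexes were at modest levels per length. Mtor, the kinase shared by both complexes, had 1001 fragments, a CV of 0.160 and 80.2 per kb, at a locus that also holds Angptl7 (chr4:148448611-148557683). Rictor, the scaffold of mTOR complex 2, was the highest of the 4 with 1455 fragments and 156 per kb at a locus of its own (chr15:6708381-6800398). Rptor, the scaffold of mTORC1, was the lowest with 476 fragments, a CV of 0.247 and 31.6 per kb (chr11:119602905-119899576). The scaffold of complex 2 was thus 4.95 times that of complex 1 per kb of exons, and 2.16 times when the longest reference transcript of each gene was used as its length. Deptor, an inhibitor that binds mTOR, lay between them with 550.3 fragments and 45.3 per kb.

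The switch upstream of mTORC1 was uneven in level. Rheb, the small GTPase that activates mTORC1, had 2823 fragments with a CV of 0.111 and 488 per kb, more than 79.0% of detected loci with 1 gene name. Tsc1, which forms the complex that turns Rheb off, was the lowest of the 42 genes, with 98.1 fragments and 8.29 per kb (chr2:28641228-28691167), and 6.95% of those loci lay lower. Its CV of 0.350 was the largest of the 42, while counting error at its level would give about 0.101. The variance that the authors fitted to the mean would give 0.528 there. Tsc1 thus lay below that fit, with a log2 ratio of variance to fitted variance of −1.19. Tsc2, the GTPase-activating partner of Tsc1, had 1427 fragments and a CV of 0.145, and the locus is shared with Pkd1, Tsc2 exons being 30.5% of its exon length. The Tsc2 locus stood at 8.73 times Tsc1 per kb of locus exons, at 18.7 times by the longest reference transcript and at 28.6 times by each gene's own exons, but how many of its fragments belong to Pkd1 cannot be read from the table.

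Inhibitors of mTORC1 that are induced by stress differed in steadiness more than in role. Ddit4, which acts through the Tsc complex and is known as a glucocorticoid and hypoxia target, had 556 fragments and 330.1 per kb with a CV of 0.134 (chr10:59949675-59951770). Sesn1, a sestrin that restrains mTORC1 through the GATOR complexes, had 973 fragments and 293 per kb with a CV of 0.343 (chr10:41810574-41908424). Sesn2, the leucine-binding sestrin, was the lowest of the 3 with 159 fragments, 38.8 per kb and a CV of 0.341, at a locus with an antisense gene. Sesn1 was thus 7.53 times Sesn2 per kb. Ddit4 and Sesn1 were on opposite sides of the variance that the authors fitted to the mean, as given further on.

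Both substrates of mTORC1 were measured near the middle of the range. Rps6kb1, a kinase of ribosomal protein S6, had 3251 fragments (CV 0.145) and 246 per kb, Rnft1 being in the same locus. Eif4ebp1, a translation repressor that mTORC1 inactivates, had 218 fragments with a CV of 0.238 and 222 per kb, since its exons span only 981 bases. By its longest reference transcript Rps6kb1 had 588 per kb, so the closeness of the pair depends on the length used.

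The loci of the catalytic subunits of AMPK were far apart. Prkaa2, the alpha2 subunit, had 378 fragments with a CV of 0.315 and 47.4 per kb (chr4:105029874-105109890). The locus of Prkaa1, the alpha1 subunit, had 5404 fragments with a CV of 0.113 and 385 per kb (chr15:5143861-5244187), 8.11 times Prkaa2 per kb of locus exons and 24.5 times by the longest reference transcript. That locus also holds the protein-coding genes Ptger4 and Ttc33, and Prkaa1 exons are 33.2% of its exon length. The 24.5 credits all fragments of the locus to Prkaa1, and how many belong to the other genes cannot be read from the deposited values. Stk11, the kinase LKB1 that activates AMPK, had 4419 fragments, 394 per kb and a CV of 0.0751, in 1 locus with Atp5d and Dos.

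Autophagy initiation genes had loci of their own. Ulk1, the kinase that AMPK activates and mTORC1 inhibits, had 3058 fragments with a CV of 0.133 and 587 per kb. Its paralogue Ulk2 had 2333 fragments with a CV of 0.191 and 390.4 per kb, so Ulk1 was 1.5 times Ulk2 per kb. Atg13, the adaptor of the Ulk kinases, was lower with 926 fragments and 212 per kb, and its CV was 0.261. The lipid kinase complex that follows them was led by Becn1, a regulator of that kinase, at 5302 fragments, 577 per kb and a CV of 0.0743, from a locus that also holds Cntd1 and Coa3. Pik3c3, the lipid kinase itself, had 2192 fragments, 491 per kb and a CV of 0.304 (chr18:30272747-30348126). Atg14, which directs the complex to autophagy, had 669 fragments, 194 per kb and a CV of 0.165.

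Membrane supply genes were lower per length. Wipi2, which binds the phosphoinositide made by that kinase and recruits Atg16l1, had 1307 fragments with a CV of 0.175 and 162 per kb. Wipi1, a relative, had 673 fragments with a CV of 0.177 and 153 per kb. These values per kb differ by only 1.06 times, and the order turned round by total fragments. Atg9a, the membrane-spanning lipid scramblase, had 857 fragments (CV 0.116) and 38.9 per kb in a locus of 6 gene names, where its exons are 26.1% of the exon length.

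The ubiquitin-like conjugation machinery spanned a wide range. Atg12, the ubiquitin-like protein joined to Atg5, was highest with 3163 fragments, a CV of 0.121 and 1269 per kb. Atg5, its acceptor, had 2588 fragments (CV 0.164) and 1059 per kb, and its locus also holds a microRNA gene. Both partners of that conjugate were thus above 90% of detected loci with 1 gene name. Atg3, the enzyme that transfers Atg8 proteins to lipid, had 1611 fragments and 511 per kb. Atg4b, the protease that trims Atg8 proteins, had 1539.6 fragments and 102 per kb, and Atg16l1, which guides the conjugate, had 814 and 80.1 per kb, both at shared loci. Atg7, the activating enzyme on which both conjugation routes depend, was the lowest with 332 fragments and 63.0 per kb (chr6:114643097-114860614). Their CVs ran from 0.121 at Atg12 to 0.204 at Atg7.

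Atg8 family genes, whose products are joined to the autophagosome membrane, ranged up to the level of lysosomal genes per kb of locus exons. Gabarap had 3663 fragments with a CV of 0.123 and 1982 per kb (chr11:69991143-69994951). Map1lc3a, one of the LC3 genes, had 1125 fragments with a CV of 0.141 and 953 per kb (chr2:155276297-155278073). Gabarapl1 had 798 fragments (CV 0.117) and 305 per kb, next to a noncoding transcript in the locus. Gabarap was 2.08 times Map1lc3a per kb, and Map1lc3a was 3.12 times Gabarapl1. No 50-base stretch of these 3 genes occurs exactly in GENCODE M21 transcripts of another gene. Cargo receptors, which tie ubiquitin-marked cargo to Atg8 proteins, were close to each other. Nbr1 had 4723 fragments with a CV of 0.147 and 681 per kb, and Sqstm1, the receptor p62, had 2979 with a CV of 0.147 and 619 per kb, each in a locus with 1 other protein-coding gene name.

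Genes of lysosomal membrane proteins had the most fragments of the 42, while per kb of locus exons Gabarap stood between them. By the longest reference transcript Gabarap had 2711 per kb, below both Lamp2 at 4869 and Lamp1 at 8949. Lamp1 had 20179 fragments with a CV of 0.0659, the smallest of the 42 genes, and 8949 per kb (chr8:13159135-13175338), above 99.4% of detected loci with 1 gene name. From the set sizes behind the variance, the distance of a library from the mean of its set at Lamp1 could not exceed 28.3% of the pooled mean. Lamp2, which is also needed for chaperone-mediated autophagy, had 17546.5 fragments with a CV of 0.147 and 1837 per kb (chrX:38401357-38456454). The gap between them was 4.87 times per kb of exons but 1.84 times by the longest reference transcript, because the exons of Lamp2 forms together span 9552 bases and its longest reference transcript 3604.

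Transcription factor genes of the pathway lay below the median of all detected loci with 1 gene name (134 per kb), except Foxo3. Foxo3 was highest with 1582 fragments, a CV of 0.165 and 209 per kb. Foxo1 had 716 fragments (CV 0.156) and 66.6 per kb in a locus with noncoding companions, and Foxo4 had 169 fragments with a CV of 0.285 and 48.5 per kb. Foxo3 was 3.14 times Foxo1 and 4.31 times Foxo4. Tfe3 had 569 fragments with a CV of 0.247 and 61.5 per kb, and Tfeb had 226 with a CV of 0.301 and 39.9 per kb, the lowest of the 5. The order of Tfe3 over Tfeb depended on length: by the longest reference transcript Tfe3 had 89.97 per kb and Tfeb 96.5.

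Variability between libraries was close to that of other loci. Among the 24 genes with a locus of their own, the median CV was 0.183, against 0.253 at all 8696 detected loci with 1 gene name and 0.197 at the 6325 of them within the range of the genes' levels. A CV falls as the level rises, so the authors' fitted variance, their expectation at a given mean, was used next. The variance lay above the fitted one at 5 of the 24 genes (20.8%), against 27.6% of the 8696 loci, 23.7% of the 6325, and 25.2% both of loci with at least 50 fragments and of protein-coding loci. Above a running median over loci of like level lay 12 of the 24 genes (49.8% of loci), and 11 by total fragments (49.9%). The median log2 ratio of variance to fitted variance was −0.80 for the 24 genes, −0.62 for the 8696 loci and −0.72 for the 6325. These shares and medians are near the background. None of the 18 shared loci lay above its fitted variance, against 26.1% of all 13467 detected loci. Levels differ in that comparison, with a median of 1483 fragments at the shared loci and 514 at the 13467. Against the running median, Rptor, Deptor, Rps6kb1, Atg5, Atg16l1, Sqstm1 and Nbr1 lay above it and the other shared loci below. Values there ran from −1.42 at Stk11 to 0.60 at Nbr1.

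**Figure D2:**
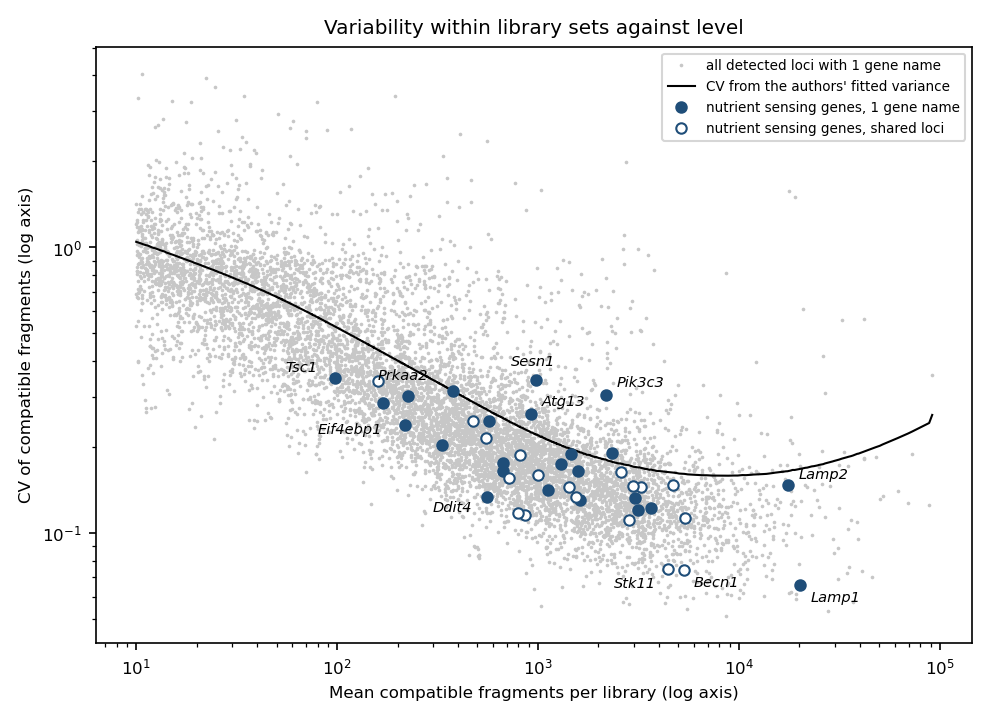
CV of compatible fragments against mean compatible fragments per library (both log axes) for the 42 genes (blue, filled for loci with 1 gene name, open for shared loci) and all 8696 detected loci with 1 gene name (grey); the line is the CV from the authors' fitted variance. Pik3c3, Sesn1 and Atg13 lie above the line, and Lamp1, at a CV of 0.0659, lies farthest below it.

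Above the line stood Pik3c3, with a log2 ratio of 1.51, and Sesn1 with 1.26, higher than at 94.8% and 93.2% of the 8696 loci. Atg13 followed with 0.42, Ulk2 with 0.21 and Prkaa2 with 0.01. Partners of these genes lay below it, as most loci did, with Ulk1 at −0.71, Atg14 at −1.22 and the Becn1 locus at −2.24. Against the running median Ulk1 stood at 0.02, Atg14 at −0.46 and the Becn1 locus at −1.34. Lowest against the fitted variance were Lamp1 at −2.70, with 1.52% of loci lower, Ddit4 at −2.04 and Eif4ebp1 at −1.41. Against the running median Ddit4 was lower, at −1.31, than Lamp1 at −1.17, and by total fragments 9.48% of loci lay lower than Lamp1. Among shared loci, Stk11 at −2.25, Becn1 at −2.24 and Gabarapl1 at −2.03 were lowest. Expected CVs from the fit show the sizes behind these ratios: Sesn1 had 0.343 where the fit gives 0.222, and Ddit4 had 0.134 where it gives 0.271.

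Most fragments were compatible with an annotated transcript. The median share was 95.9% over the 24 genes and 95.5% over the 8696 loci. Under 70% lay 3 of the 24 genes (12.5%), close to the 13.1% of the 8696 loci and 13.3% of all detected loci. Pik3c3 had 2192 compatible of 5822 total fragments, a share of 37.7%, Wipi1 had 673 of 1105 (60.9%) and Rictor had 1455 of 2196 (66.2%). Rptor at 75.8% and Tsc1 at 79.7% followed, and 29 of all 42 genes exceeded 95%. At Pik3c3 the total fragments also varied more than the compatible ones, with a CV of 0.719 against 0.304. At Wipi1 and Rictor the total CVs, 0.163 and 0.150, were smaller than the compatible CVs, 0.177 and 0.190. Relative to loci of like total level, the total variance of Pik3c3 was higher by 5.22 on the log2 scale, more than at 99.7% of loci with 1 gene name and at least 10 total fragments. Where in the locus these other fragments lie cannot be read from the table.

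**Figure D3:**
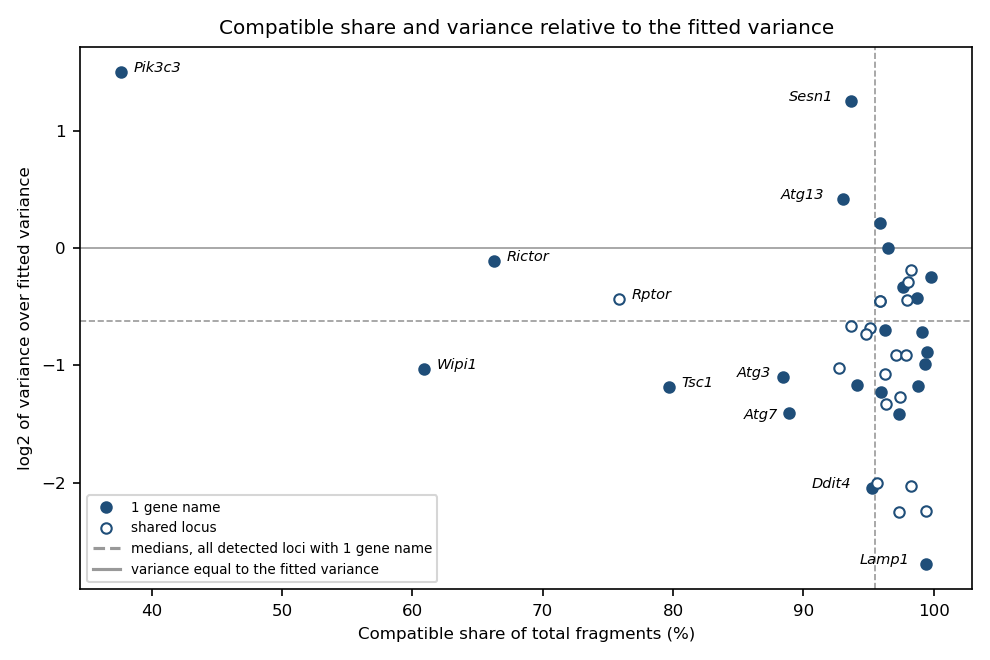
The log2 of variance over fitted variance (vertical axis) against the compatible share of total fragments in % (horizontal axis) for the 42 genes; filled points are loci with 1 gene name, open points are shared loci, and dashed lines are the medians of all 8696 detected loci with 1 gene name. Pik3c3 lies at 37.7% and 1.51, and Wipi1 and Rictor have low shares with a variance below the fitted one.

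Transcript forms differed among the genes as well. The merged annotation holds 292 transcripts of the 42 genes, of which 46 are new forms that share a splice junction with a known one. New forms occur at 20 of the 42 genes. At genes with a locus of their own the count was 12 of 24, against 34.4% of the 8696 loci. Atg7, Becn1, Nbr1 and Tfeb had 5 new forms each, while Lamp1, Rictor, Ulk1, Ddit4 and Eif4ebp1 were among those with a single reference transcript and no new form. Rictor, with 741 fragments not compatible with an annotated transcript, had no new form, and Pik3c3, with 3630 such fragments, had 1.

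Neighbours of these genes in the pathway were widely detected too. Of 142 further genes listed by role, 141 were found, all with at least 10 compatible fragments. Of all loci 42% reached that level, and of loci with a protein-coding gene 63.9%. At the 81 with a locus of their own, 9 (11.1%) lay above the fitted variance, against 27.6% of the 8696 loci and 25.2% of the protein-coding ones. The median log2 ratio was −0.93, against −0.62 and −0.67. The neighbours were not compared with a running median over loci of like level, so the part of level in these values was not tested. Lysosome genes were high, with a median of 878 per kb, and 0 of 17 lay above the fitted variance, where 27.6% of the 8696 loci did. Among them Ctsl, a cysteine protease, had 8861 per kb and Psap, a precursor of lipid-handling saposins, had 3008, while Mcoln1, a lysosomal calcium channel, had 38.1 and the galactosidase gene Gla had 38.6. Selective autophagy receptors had a median of 1302 per kb, with the mitophagy receptors Bnip3l at 3093 and Fundc1 at 1915 and with Tollip at 734 and Calcoco1 at 213.

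The genes named from each list are among its 2 highest and 2 lowest per kb at loci with 1 gene name, and some shared loci of the lists lay outside these values. Among AMPK partners, the scaffold genes Cab39l and Cab39 had 1497 and 1093 per kb, and Camkk2, an upstream kinase, and Prkag3, a regulatory subunit known from skeletal muscle, had 10.9 and 4.98. Prkag3 had a CV of 1.60 at 18.3 fragments. In amino acid sensing, Lamtor3, a Ragulator subunit, had 1358 and Sec13, a GATOR2 subunit, had 1115 per kb, with Castor2 at 27.3 and its relative Castor1, an arginine sensor, at 19.5. Of further autophagy genes, Gabarapl2, an Atg8 gene, had 978 and Sh3glb1, which binds the Becn1 complex, had 909 per kb, with Atg16l2 at 20.1 and Ambra1 at 17.2. In insulin signalling Pdpk1, a kinase of Akt, had 389.8 per kb, while Foxo6 had 38.6 and Igf1r had 37.1. Next to mTOR, Rps6, a ribosomal protein and substrate of Rps6kb1, had 4924 and Eif4b 843 per kb, with Telo2 at 19.2 and Prr5 at 6.39. Some of these low values go with a low compatible share. It was 31.5% at Ambra1, 35.1% at Castor1, 46.5% at Igf1r, 57.1% at Prr5 and 60.2% at Atg16l2. At Castor2, Foxo6, Telo2, Camkk2 and Prkag3 it was 87.4% to 97.1%. Whether the order of the low genes holds by total fragments was not tested.

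**Figure D4:**
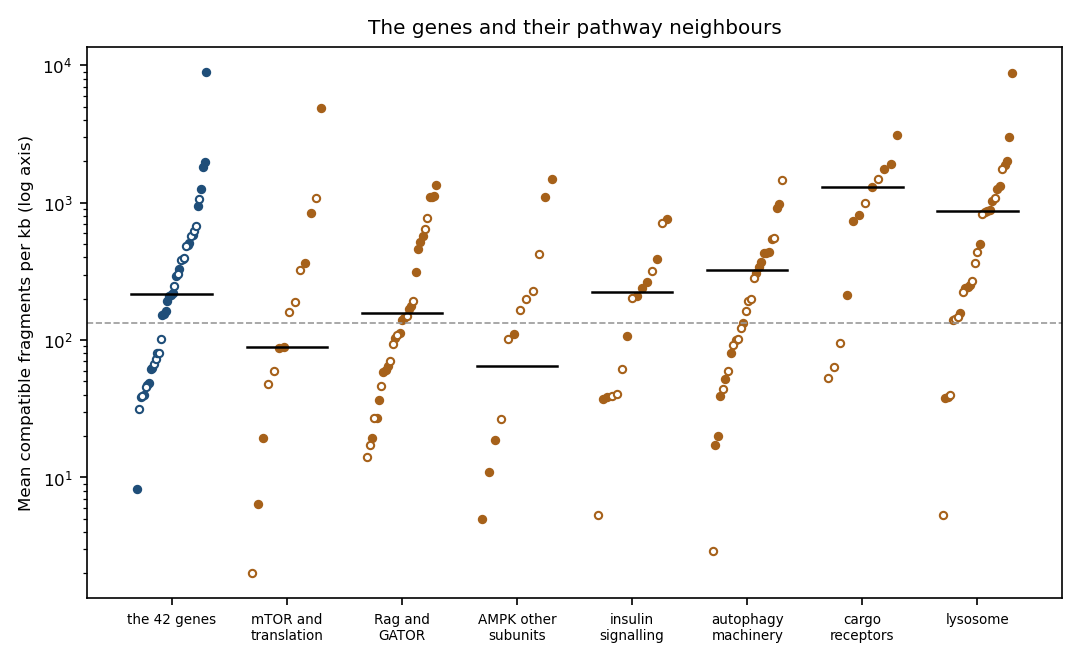
Mean compatible fragments per kb (log axis) of the 42 genes (blue) and of 7 lists of pathway neighbours (brown), sorted within each list; filled points are loci with 1 gene name, open points are shared loci, black bars are medians over filled points and the dashed line is the median of all 8696 detected loci with 1 gene name. The medians of the receptor list (1302) and the lysosome list (878) stand above that of the 42 genes (217).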

How the data were processed

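RNA of circumvallate taste buds was sequenced as 21 libraries, 7 in each group as labelled. The submitters' processing notes name TopHat, Bowtie2, Cufflinks, Cuffdiff, Trimmomatic and FastQC with the build GRCm38.p4, without roles or order. Settings, strand and multiread handling remain not given in the sources used here. Deposited were the authors' transcript annotation and, per locus, a signal: the mean of scaled fragments, its variance and a fitted variance, per the file headers. The rows of 3 conditions were identical, so no count test or contrast could be made, and the spread between libraries is known only as the deposited variance. Depth per library is not in the table.

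Exons were placed in loci by containment, and companions were typed with GENCODE M21 (GRCm38). Detection meant at least 10 compatible fragments. Loci with fragments in 1 library had a variance over squared mean of 18.375, 18 or 17.5 (474, 667 and 454 loci, relative tolerance 0.0001). These are the values that sets of 8, 7 and 6 libraries give with a divisor of 21, whereas the labels give 7 in each group, and which set is which group cannot be read from the table. Running medians took 201 loci. Motifs were searched on both strands of RefSeq promoter windows. Genes and lists were chosen with earlier results of these data known. Named were all members, extremes within each role, paralogues, and the 2 highest and 2 lowest neighbours per list at loci with 1 gene name, of which 1 is not reported here. All medians, shares and percentiles are descriptions without a test. Calculations were tested on simulated data. Versions were matplotlib 3.10.9, pandas 2.3.3, numpy 2.4.6 and Python 3.11.15.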

Additional observations from a re-analysis of the deposited data

How the results depend on the processing

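All 42 genes were detected at 1, 10 or 50 compatible fragments and at 10 total fragments, and 24 when only loci with 1 gene name counted. The median log2 variance ratio of −0.80 became −0.90 over all 42 loci, −0.068 against a running median and −0.070 against one of total fragments. The 5 genes above the fitted variance became 12 above the running median and 11 by total fragments, where 49.8% and 49.9% of loci lie above it by construction. The median CV was 0.162 over all 42 loci and 0.176 by total fragments. The median compatible share was 96.3% over all 42 loci. The median of 217 fragments per kb became 255 with the longest reference transcript as length and 243 by total fragments. On the log2 scale Tfe3 over Tfeb turned to −0.10 with that length, and Wipi2 over Wipi1 turned to −0.61 by total fragments. The other 26 of 28 paralogue orders kept their direction. By total fragments 38 of 42 levels moved by less than 1 SD, the exceptions being Pik3c3, Rictor, Rptor and Wipi1. GTAAACA matches numbered 0 in the 250 bases before the start, a window tried after seeing the data, where CACGTG was in 5 windows. Of 141 neighbours, 134 had at least 50 fragments, as did 35.4% of all loci. No paired analysis was possible because the table holds no value per library, and for the same reason no library could be left out.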
